A study of Mus musculus with 69 samples.

Results

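The genes described here write or remove methyl groups on histone lysines, or belong by name to families of such enzymes: the Kmt2 and Kmt5, Setd, Ehmt, Suv39h, Nsd, Ezh, Smyd and Prdm methyltransferases and the Kdm demethylases. They were taken by gene symbol, with Dot1l and Kdm2b left out, which gave 65 genes of the 52636 features in the count table. Of these, 57 had enough reads to be tested for differences in RNA and 48 carried a peak of dimethylated histone H3 lysine 79 (H3K79me2) in at least 1 of both peak lists. The tissue was the nucleus accumbens, a part of the ventral striatum, of male mice raised under early life stress (ELS) or under Standard rearing. RNA came from 4 groups of 8 libraries each: ELS mice labelled Dot1l knockdown, ELS mice labelled GFP, Standard mice labelled Dot1l overexpression, and Standard mice labelled GFP. The labels give no age, no vector and no statement of which cells took up a construct, and the RNA was prepared from whole tissue. Chromatin immunoprecipitation with an antibody against H3K79me2 was done on 9 ELS and 9 Standard samples with 10 ELS and 9 Standard inputs, and was deposited as 1 annotated peak list per rearing group. Nothing in the labels says whether the libraries of a group came from separate animals, so p-values measure the spread between these libraries. In whole tissue, fewer cells of a type and less RNA per cell cannot be told apart.

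Histone lysine methylation is read by position. Methylation of H3 lysine 4 marks promoters and enhancers, that of H3 lysine 36 and lysine 79 lies over transcribed gene bodies, and that of H3 lysine 9 and lysine 27 is tied to heterochromatin and to Polycomb repression. Most writers share a catalytic SET domain. Dot1l, the writer of lysine 79 methylation, has none, which sets it apart from most writers described here. Demethylases are either amine oxidases, as in Kdm1a and Kdm1b, or dioxygenases with a Jumonji C domain, as in the other Kdm families. Several of these genes, among them Kmt2a, Ehmt1, Ehmt2, Kdm5c and Setd1a, are known for roles in neuronal gene regulation and in neurodevelopmental disorders.

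H3K79me2 peaks touched the promoter windows of 8 of the 47 members that RefSeq's promoter table lists, in the Standard list. Each window runs from 250 bases before to 50 bases after an annotated start. The windows of Setd2, Ehmt2 and Prdm4 are printed as examples, 5′ to 3′ on the gene's strand. The edge of a Standard peak falls inside each of them, as it also does in windows of other members, such as Kmt5a and Smyd4. Capitals mark the bases that lie inside the Standard peak. Setd2, the trimethylating enzyme of H3 lysine 36, is read from chr9:110532347-110532646 on the plus strand of GRCm38.p6 (the mm10 build), and its last 10 bases lie inside a peak of 3.004-fold enrichment. Ehmt2, which mono- and dimethylates H3 lysine 9, is shown at a second start, chr17:34898720-34899019 on the plus strand, with 53 bases inside a peak of 2.30-fold enrichment. Prdm4, a zinc finger protein with a PR domain, is shown at an inner start, chr10:85916680-85916979 on the minus strand, with 194 bases inside a peak of 2.64-fold enrichment, and an ELS peak of 2.16-fold enrichment, chr10:85916221-85916776, overlaps this window too.
Setd2: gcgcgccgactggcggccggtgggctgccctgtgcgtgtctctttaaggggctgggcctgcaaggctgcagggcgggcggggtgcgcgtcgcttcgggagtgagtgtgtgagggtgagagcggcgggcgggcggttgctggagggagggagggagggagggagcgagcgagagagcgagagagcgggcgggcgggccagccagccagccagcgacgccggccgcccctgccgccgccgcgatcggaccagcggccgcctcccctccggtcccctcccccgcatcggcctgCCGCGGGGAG
Ehmt2: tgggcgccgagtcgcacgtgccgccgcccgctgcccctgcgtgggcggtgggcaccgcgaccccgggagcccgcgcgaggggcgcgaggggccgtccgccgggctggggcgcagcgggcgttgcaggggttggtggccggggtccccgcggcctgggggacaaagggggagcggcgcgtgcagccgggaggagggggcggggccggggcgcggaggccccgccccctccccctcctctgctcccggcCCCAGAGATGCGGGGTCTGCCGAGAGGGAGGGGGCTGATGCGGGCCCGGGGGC
Prdm4: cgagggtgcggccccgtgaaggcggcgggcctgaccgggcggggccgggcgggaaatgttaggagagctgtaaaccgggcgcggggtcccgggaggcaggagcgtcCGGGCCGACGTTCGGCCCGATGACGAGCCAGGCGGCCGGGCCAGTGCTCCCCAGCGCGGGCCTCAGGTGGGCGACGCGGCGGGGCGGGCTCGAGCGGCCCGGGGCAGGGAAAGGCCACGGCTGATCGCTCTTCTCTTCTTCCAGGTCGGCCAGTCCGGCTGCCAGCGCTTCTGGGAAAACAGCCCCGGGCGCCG
These 300 bases hold 38 CpG dinucleotides in Setd2, 40 in Ehmt2 and 40 in Prdm4, and 77.3%, 82.7% and 75.3% of their bases are G or C. The files do not say whether peak starts count from 0 or from 1, so each edge is uncertain by 1 base.

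In the whole set of 60 windows of those 47 members, 3 were overlapped by an ELS peak and 8 by a Standard peak. Peaks were counted over member windows only, so no share over all windows stands beside these counts. The 8 windows with a peak held a median of 35 CpG dinucleotides, against 23 in the 52 windows without one and 7 over all 32851 windows of the table. The letters GGGCGG of the GC box were found on either strand in 63.3% of the member windows and in 35.7% of all windows. CCAAT was found in 46.7% of the member windows and in 37.4% of all windows, TATAAA in 5.00% and 13.6%, the YY1 motif ATGGCGGC in 8.33% and 2.24%, and the ETS motif CCGGAAGT in 1.67% and 3.89%. GGGCGG and ATGGCGGC can share letters where they lie next to each other. A match describes the letters of these windows and does not show that a factor bound there.

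Library depth ran between 314200 and 11117998 counts, and 4 libraries held under 1000000 counts: 1 labelled knockdown and 3 Standard GFP. The 10 most abundant features took 36.1% to 59.5% of a library's counts and the 65 members together 0.177% to 0.343%. Levels are given in CPM, read counts brought to a common library total and scaled for library composition. They are meant for comparison between libraries but not between genes, since gene length is not taken into account. Dot1l, the gene that the constructs target, stood at 28.9 to 74.9 CPM (median 38.4) in libraries labelled knockdown and at 15.4 to 54.2 CPM (median 35.0) in ELS GFP. It stood at 25.2 to 75.01 CPM (median 37.7) in libraries labelled overexpression and at 10.6 to 48.5 CPM (median 36.3) in Standard GFP. Its log2 fold change was 0.28 (SE 0.27, edgeR adjusted p = 0.985) for knockdown and 0.33 (SE 0.27, adjusted p = 0.741) for overexpression, so Dot1l RNA was not lower in the libraries labelled knockdown, and both groups are named by their labels throughout. Markers of striatal medium spiny neurons were present, with 11 of 11 tested. Summed over the list they reached 512 to 1565 CPM (median 622) in ELS GFP, against 501 to 2311 CPM (median 1061) in Standard GFP, and 10 of 11 had a negative fold change (median -0.87). All 5 tested astrocyte markers (median -0.64), all 7 oligodendrocyte markers (median -0.63), all 3 oligodendrocyte precursor markers (median -0.67) and all 5 tested microglia markers (median -0.72) were likewise negative in ELS GFP relative to Standard GFP, while 2 of 3 endothelial markers were positive (median 0.13), and none passed adjustment in a pairwise comparison. The precursor marker Neu4 passed in the test over 4 groups (edgeR adjusted p = 0.0203), with log2 fold changes of -2.70 for ELS, -3.70 for overexpression and -2.43 for knockdown. In several alternative fits given below, such as that with limma voom, the test over 4 groups called 0 genes. The summed precursor list ran over 6.21 to 166.5 CPM (median 33.3) in Standard GFP, and the part of single libraries in the Neu4 values was not examined. Gfap and P2ry12, defining markers of astrocytes and microglia, are listed at 0 in all 32 libraries, and whether a gene listed at 0 lacked RNA or was not counted was not tested. In the overexpression comparison the list medians were -0.39 for medium spiny neurons, -0.01 for astrocytes, -0.47 for oligodendrocytes, -0.94 for their precursors, -0.42 for microglia and -0.30 for endothelial cells. In the knockdown comparison they were 0.06, 0.11, -0.10, 0.34, 0.46 and -0.50 for the same lists in the same order. The part of cell composition in the members' values was not tested.

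No member differed between groups at an adjusted p of 0.05, with p-values from edgeR's quasi-likelihood test adjusted by Benjamini and Hochberg over all 14016 tested genes. In the comparison of ELS GFP with Standard GFP, 0% of all genes passed as well, in 1 fit over all 32 libraries. At an unadjusted p under 0.05, the test picked out 9 of 57 members in ELS relative to Standard GFP, beside 11.7% of all tested genes, with 2 higher (4% of all genes) and 7 lower (7.73%). It picked out 5 of 57 in the overexpression comparison, beside 10.9% of all genes, with 1 higher (4.59%) and 4 lower (6.28%). In the knockdown comparison it picked out 4 of 57, beside 6.18% of all genes, with 0 higher (2.23%) and 4 lower (3.95%). A test of any difference among the 4 groups gave an unadjusted p under 0.05 for 8 members, beside 12.4% of all genes, and passed adjustment for no member, beside 1.27% of all genes. DESeq2 called no member either, although it called 85, 41 and 2 genes in the ELS, overexpression and knockdown comparisons. The log2 fold changes of the members had a median of -0.08 in ELS relative to Standard GFP, where 35 of 57 were negative and 22 positive, beside a median of -0.01 over all genes, of which 51.2% were negative and 48.8% positive. In the overexpression comparison the median was 0.02 with 26 of 57 negative and 31 positive, beside 0.02, 48.5% and 51.5% over all genes, and in the knockdown comparison it was 0.04 with 24 of 57 negative and 33 positive, beside 0.00, 49.8% and 50.2%. The ELS and overexpression comparisons share the Standard GFP libraries, and the ELS and knockdown comparisons share the ELS GFP libraries, so their values are not independent. Each SE was derived from the fold change and the F statistic and is not a measured spread. For every tested member, the ranges of the groups compared overlapped in all 3 comparisons, while 0.00713% of all genes had ranges that did not overlap in the ELS comparison, 0% in the overexpression comparison and 0.0143% in the knockdown comparison.

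**Figure D1:**
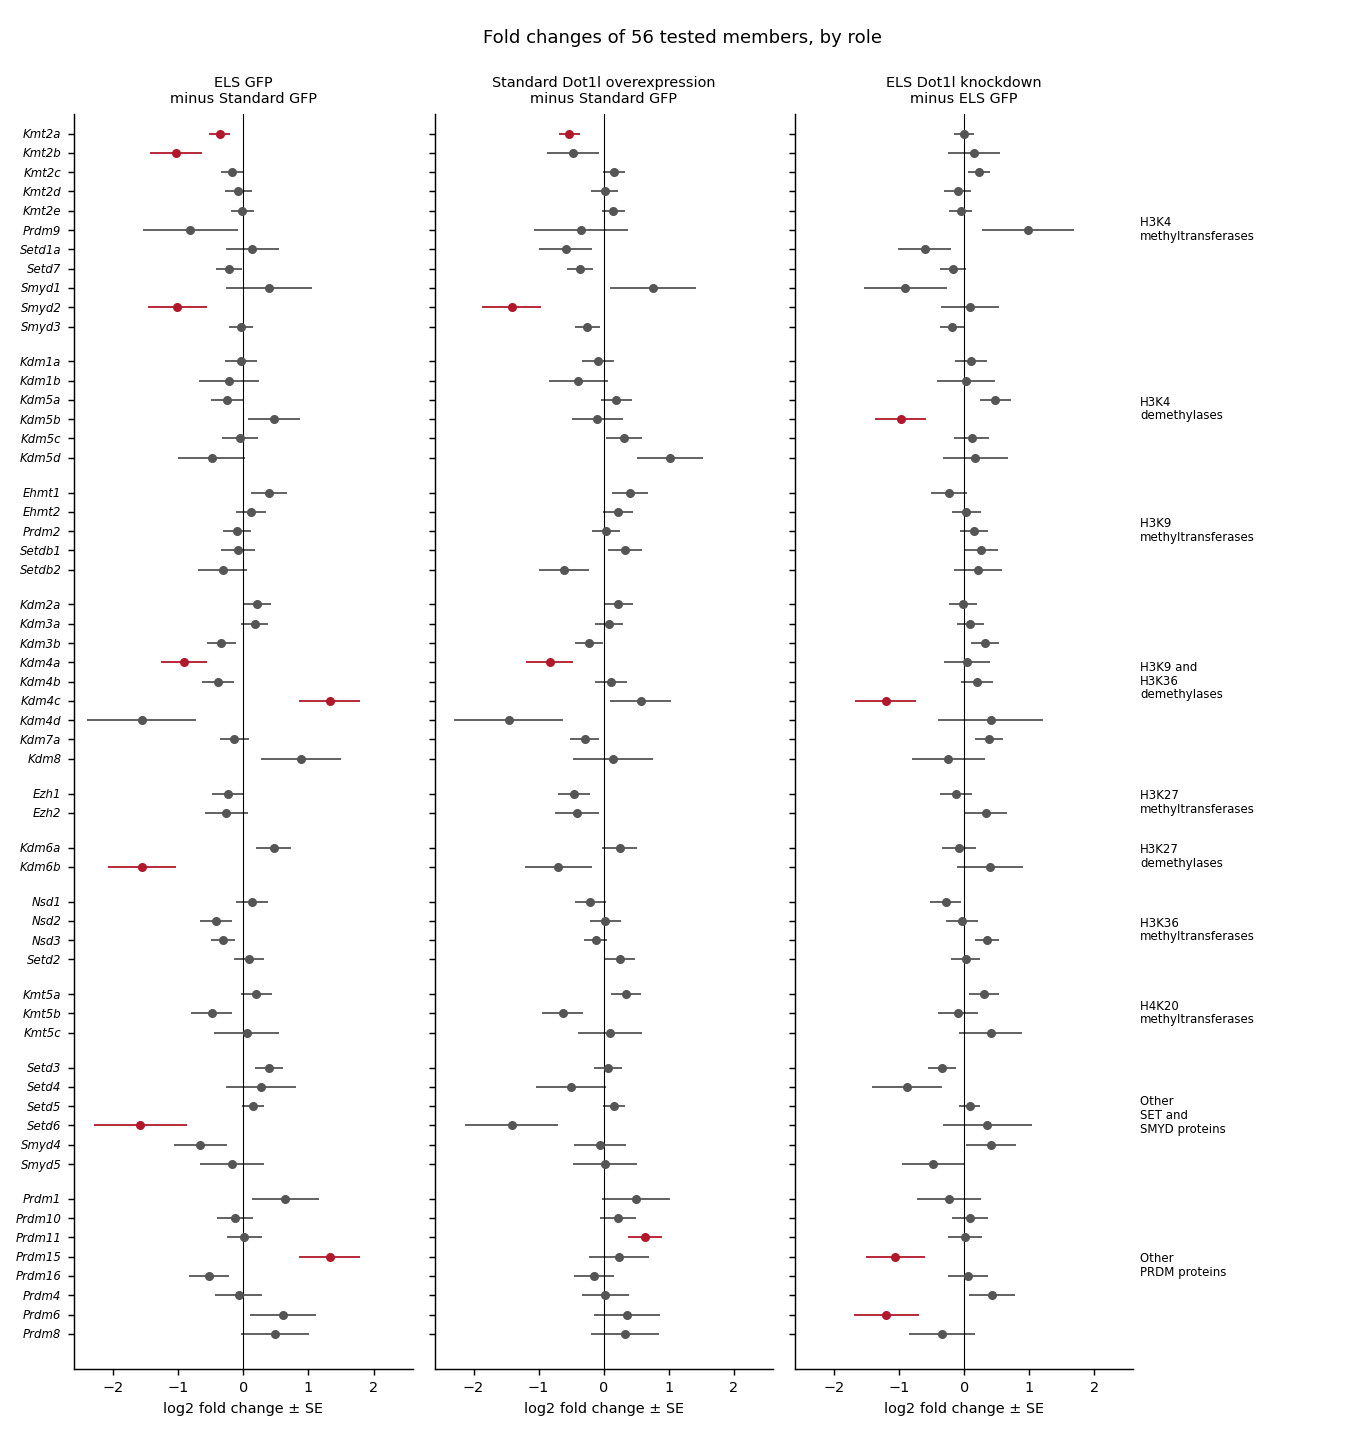
Log2 fold change with its SE for 56 of the 57 tested members, ordered by role, in each of 3 comparisons, with red for an unadjusted p under 0.05. Most bars cross 0, and the members drawn in red are 8 in the ELS, 4 in the overexpression and 4 in the knockdown comparison.

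Among the 12 genes assigned as writers of H3 lysine 4 methylation, 11 were tested, and 9 had a negative fold change in ELS relative to Standard GFP (median -0.17). In the overexpression comparison (median -0.35) and in the knockdown comparison (median -0.06), 7 of 11 had one. Kmt2a, the catalytic subunit of a COMPASS-like complex that methylates H3 lysine 4 at promoters, had the smallest p of all members. Its level was 137 to 192 CPM (median 152) in libraries labelled knockdown, 143 to 188 CPM (median 156) in ELS GFP, 119 to 160.4 CPM (median 141) in libraries labelled overexpression and 144 to 371 CPM (median 184) in Standard GFP. All 8 libraries labelled overexpression lay below the Standard GFP median, although the ranges met between 144 and 160 CPM. Its log2 fold change was -0.53 (SE 0.16) in the overexpression comparison (edgeR adjusted p = 0.170) and -0.36 (SE 0.16) in ELS relative to Standard GFP (adjusted p = 0.344), and -0.00 (SE 0.16) in the knockdown comparison. Without Standard GFP library 6, the highest at 371 CPM, the first value was -0.34 and the second -0.18. The unadjusted p for overexpression was under 0.05 in 41 of 41 alternative fits and the adjusted p at least 0.0730 in each. Of these fits, 32 leave out only 1 library, so such a count is no measure of stability. It was 37 of 41 for Kdm4c in ELS, where 1 library carried the fold change.

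Smyd2, a SET and MYND domain protein that methylates histones and p53, was at 3.51 to 29.5 CPM (median 12.2) in libraries labelled knockdown, 5.15 to 21.1 CPM (median 11.4) in ELS GFP, 2.83 to 14.02 CPM (median 10.1) in libraries labelled overexpression and 3.01 to 98.8 CPM (median 16.1) in Standard GFP. The 8 libraries labelled overexpression were all below the Standard GFP median, while Standard GFP library 6 reached 98.8 CPM and alone held 49.8% of its group's summed level. The log2 fold change was -1.41 (SE 0.45) for overexpression (edgeR adjusted p = 0.192) and -1.01 (SE 0.45) for ELS (adjusted p = 0.346). Without Standard GFP library 6 these values were -0.57 and -0.17. Kmt2b, a paralog of Kmt2a with the same activity, was at 20.1 to 59.7 CPM (median 33.7) in libraries labelled knockdown, 12.9 to 47.03 CPM (median 33.8) in ELS GFP, 29.8 to 95.8 CPM (median 42.1) in libraries labelled overexpression and 14.5 to 247 CPM (median 34.4) in Standard GFP. Here the group medians lay close together, at 33.8 CPM in ELS GFP and 34.4 CPM in Standard GFP, and the 247 CPM of Standard GFP library 6 stood apart. The fold change for ELS was -1.04 (SE 0.40) (edgeR adjusted p = 0.256), and -0.30 without that library. Kmt2d, which monomethylates H3 lysine 4 at enhancers, averaged 196 ± 43.3 CPM in libraries labelled knockdown, 210.2 ± 60.3 in ELS GFP, 225 ± 57.5 in libraries labelled overexpression and 221 ± 96.9 in Standard GFP (SD, n = 8 per group, here and below). Its fold changes were -0.08 for ELS, 0.02 for overexpression and -0.10 for knockdown. Kmt2c, Kmt2e, Setd1a, Setd7, Smyd1, Smyd3 and Prdm9 had no unadjusted p under 0.05 in any comparison. Setd1b, which encodes a catalytic subunit of COMPASS, is listed at 0 in all 32 libraries and was not tested.

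**Figure D2:**
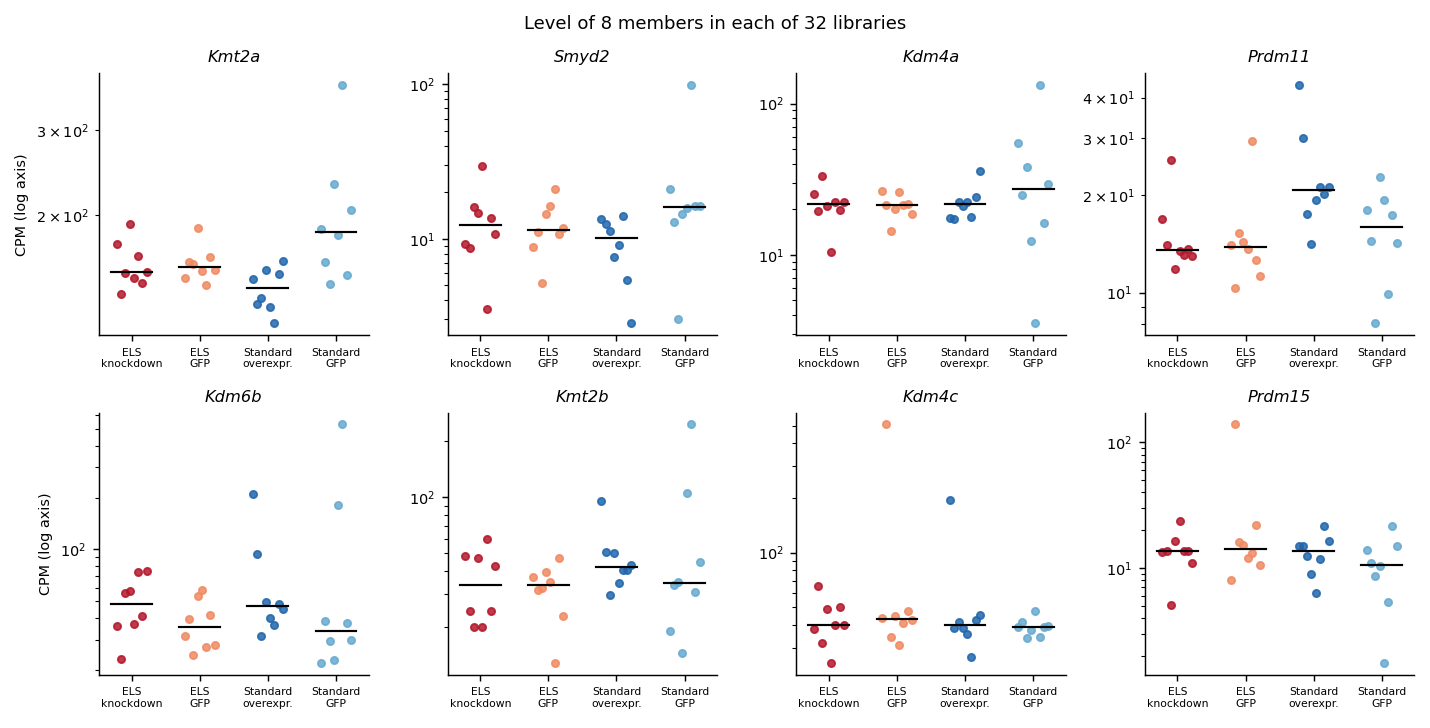
Level of 8 members in each of 32 libraries, in CPM on a log axis, by group, with 1 point per library and a bar at the group median. All 8 overexpression points of Kmt2a and all 8 of Smyd2 lie below the Standard GFP median. Kdm6b, Kmt2b, Kdm4c and Prdm15 each have 1 or more libraries far above the others. The highest are at 531 CPM for Kdm6b, 247 CPM for Kmt2b, 507 CPM for Kdm4c and 139 CPM for Prdm15. Standard GFP library 6 also stands above its group for Smyd2 at 98.8 CPM, Kmt2a at 371 CPM and Kdm4a at 132 CPM.

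The 6 erasers of H3 lysine 4 methylation were all tested. In ELS relative to Standard GFP, 5 of 6 had a negative fold change (median -0.13), and in the knockdown comparison 5 of 6 had a positive one (median 0.11). Kdm1a, the flavin-dependent eraser of mono- and dimethylation also called LSD1, averaged 25.9 ± 10.55 CPM in libraries labelled knockdown, 24.2 ± 8.78 in ELS GFP, 23.4 ± 3.18 in libraries labelled overexpression and 24.4 ± 6.64 in Standard GFP. Its fold changes were -0.03 for ELS, -0.08 for overexpression and 0.11 (SE 0.24) for knockdown. Kdm5a, a Jumonji eraser of trimethylation, averaged 45.3 ± 14.4 CPM in libraries labelled knockdown, 32.3 ± 5.18 in ELS GFP, 44.2 ± 22.9 in libraries labelled overexpression and 38.8 ± 9.87 in Standard GFP. In 7 of 8 libraries labelled knockdown its level was above the ELS GFP median, with a fold change of 0.48 (SE 0.24) (edgeR adjusted p = 0.809). Kdm5b, its paralog, ranged over 23.9 to 54.4 CPM (median 35.8) in libraries labelled knockdown, 22.4 to 318 CPM (median 37.4) in ELS GFP, 33.01 to 94.7 CPM (median 41.05) in libraries labelled overexpression and 26.9 to 125 CPM (median 45.4) in Standard GFP. ELS GFP library 2 stood far above the other 7 of its group, and the fold change for knockdown, -0.97 (SE 0.39) (edgeR adjusted p = 0.638), was -0.06 without it. Kdm5c, an X-linked eraser, averaged 23.5 ± 7.42 CPM in libraries labelled knockdown, 22.2 ± 8.79 in ELS GFP, 28.2 ± 15.2 in libraries labelled overexpression and 22.9 ± 5.39 in Standard GFP, with a fold change of 0.31 (SE 0.28) for overexpression, and 0.05 without library 2 of that group. Kdm5d, its Y-linked paralog, ranged over 7.26 to 28.3 CPM (median 19.04) in libraries labelled knockdown, 11.1 to 24.5 CPM (median 15.3) in ELS GFP, 10.2 to 264 CPM (median 18.4) in libraries labelled overexpression and 10.3 to 65.2 CPM (median 19.2) in Standard GFP. The group medians were within 4 CPM of each other, and the library labelled overexpression that reached 264 CPM held 68.8% of its group's sum. The fold change for overexpression was 1.02 (SE 0.51) (edgeR adjusted p = 0.469), and it was -0.44 without that library. Reads of the Kdm5c and Kdm5d paralogs may be split between them, and the handling of reads that map to both is unstated in the labels.

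Of the 7 writers of H3 lysine 9 methylation, 5 were tested. Their median fold change was -0.08 for ELS, 0.23 for overexpression and 0.14 for knockdown, and none had an unadjusted p under 0.05. Ehmt1 and Ehmt2, also called GLP and G9a, form the main dimethylating complex. Ehmt1 averaged 61.1 ± 21.1 CPM in libraries labelled knockdown, 72.4 ± 32.7 in ELS GFP, 72.5 ± 45.4 in libraries labelled overexpression and 54.4 ± 13.7 in Standard GFP, with a fold change of 0.40 (SE 0.27) for overexpression and 0.05 without library 1 of that group, which reached 181 CPM. Ehmt2 averaged 36.03 ± 8.99 CPM in libraries labelled knockdown, 35.5 ± 12.1 in ELS GFP, 38.3 ± 8.22 in libraries labelled overexpression and 32.2 ± 10.8 in Standard GFP, and all 8 libraries labelled overexpression were above the Standard GFP median, with a fold change of 0.23 (SE 0.23), and 0.13 without library 8 of that group. Prdm2, also called RIZ, averaged 58.7 ± 20.98 CPM in libraries labelled knockdown, 53.1 ± 7.51 in ELS GFP, 58.2 ± 22.9 in libraries labelled overexpression and 57.1 ± 16.1 in Standard GFP, with fold changes of -0.09 for ELS, 0.04 for overexpression and 0.14 for knockdown. Suv39h1, a trimethylating enzyme of pericentric heterochromatin, is listed at 0 in all libraries, and its paralog Suv39h2 had 194 counts in all.

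The 9 erasers of H3 lysine 9 and lysine 36 methylation were all tested, with median fold changes of -0.14 for ELS, 0.08 for overexpression and 0.09 for knockdown. Kdm4a, which removes trimethylation from both residues, was at 10.4 to 33.3 CPM (median 21.6) in libraries labelled knockdown, 14.3 to 26.3 CPM (median 21.3) in ELS GFP, 17.4 to 35.8 CPM (median 21.7) in libraries labelled overexpression and 3.52 to 132 CPM (median 27.1) in Standard GFP. All 8 ELS GFP libraries and 7 of 8 libraries labelled overexpression lay below the Standard GFP median. Its fold change was -0.91 (SE 0.36) for ELS (edgeR adjusted p = 0.266) and -0.83 (SE 0.36) for overexpression (adjusted p = 0.358), and these were -0.31 and -0.23 without Standard GFP library 6 at 132 CPM. Kdm4c, a paralog of Kdm4a, was at 24.8 to 65.2 CPM (median 39.9) in libraries labelled knockdown, 31.01 to 507 CPM (median 42.9) in ELS GFP, 26.5 to 194 CPM (median 40.0) in libraries labelled overexpression and 33.96 to 47.6 CPM (median 38.9) in Standard GFP. A single library, ELS GFP 2, held 64.1% of the level summed over ELS GFP, and the median of that group was 42.9 CPM against 38.9 CPM in Standard GFP. The fold change was 1.32 (SE 0.47) for ELS (edgeR adjusted p = 0.209) and -1.21 (SE 0.47) for knockdown (adjusted p = 0.605). Without that library both values lay near 0, at 0.07 and 0.05. Kdm2a, an eraser of lysine 36 dimethylation that binds CpG islands, averaged 49.8 ± 14.4 CPM in libraries labelled knockdown, 50.8 ± 12.1 in ELS GFP, 51.5 ± 20.04 in libraries labelled overexpression and 44.4 ± 10.1 in Standard GFP, with a fold change of 0.22 (SE 0.22) for overexpression, and 0.03 without library 1 of that group. Kdm3a, Kdm3b, Kdm4b, Kdm4d, Kdm7a and Kdm8 had no unadjusted p under 0.05. Kdm4b was below the Standard GFP median in 8 of 8 ELS GFP libraries, with a fold change of -0.39 (SE 0.25). This gene is outside the rule for named genes and was chosen after its values were seen.

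The enzymes of H3 lysine 27 methylation comprised 2 writers and 2 erasers. Ezh2, the catalytic subunit of Polycomb repressive complex PRC2, averaged 16.03 ± 5.72 CPM in libraries labelled knockdown, 12.8 ± 4.89 in ELS GFP, 11.6 ± 3.25 in libraries labelled overexpression and 16.2 ± 15.2 in Standard GFP. Ezh1, its paralog in cells that have stopped dividing, averaged 18.5 ± 5.46 CPM in libraries labelled knockdown, 20.3 ± 4.84 in ELS GFP, 17.5 ± 5.66 in libraries labelled overexpression and 24.5 ± 10.7 in Standard GFP. Both had negative fold changes in ELS relative to Standard GFP, -0.26 (SE 0.34) for Ezh2 and -0.24 (SE 0.25) for Ezh1, and in the overexpression comparison, -0.41 (SE 0.34) and -0.46 (SE 0.25). Standard GFP library 5 held 40.7% of its group's sum for Ezh2, at 52.8 CPM, and without it the overexpression value was 0.05 for Ezh2 and -0.26 for Ezh1. By group medians Ezh2 was higher in ELS GFP, at 12.4 CPM, than in Standard GFP, at 11.5 CPM, against the sign of its fold change. Kdm6b, a Jumonji eraser induced by neuronal activity and inflammation and also called JMJD3, was at 23.1 to 75.3 CPM (median 48.4) in libraries labelled knockdown, 24.4 to 58.2 CPM (median 35.3) in ELS GFP, 31.3 to 209 CPM (median 46.8) in libraries labelled overexpression and 22.02 to 531 CPM (median 33.5) in Standard GFP. The median was 35.3 CPM in ELS GFP and 33.5 CPM in Standard GFP, and 4 of 8 ELS GFP libraries lay on either side of the Standard median. The fold change for ELS was -1.56 (SE 0.52) (edgeR adjusted p = 0.169). Standard GFP library 6 carried 531 CPM, and without it the value was -0.38. Kdm6a, its X-linked paralog UTX, averaged 28.9 ± 9.57 CPM in libraries labelled knockdown, 30.9 ± 11.5 in ELS GFP, 26.4 ± 13.4 in libraries labelled overexpression and 21.99 ± 6.63 in Standard GFP, with a fold change of 0.47 (SE 0.27) for ELS.

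All 4 writers of H3 lysine 36 methylation and all 3 of H4 lysine 20 were tested, and none had an unadjusted p under 0.05. Setd2 averaged 86.8 ± 19.03 CPM in libraries labelled knockdown, 85.4 ± 10.96 in ELS GFP, 95.8 ± 64.2 in libraries labelled overexpression and 80.1 ± 11.2 in Standard GFP, with a fold change of 0.25 (SE 0.23) for overexpression and -0.12 without library 1 of that group. Nsd1, a dimethylating enzyme of lysine 36, averaged 121 ± 21.8 CPM in libraries labelled knockdown, 148 ± 94.3 in ELS GFP, 117 ± 16.2 in libraries labelled overexpression and 134 ± 62.7 in Standard GFP, with a fold change of -0.29 (SE 0.24) for knockdown and 0.07 without ELS GFP library 2. Nsd3 was above the ELS GFP median in 8 of 8 libraries labelled knockdown, with a fold change of 0.35 (SE 0.18) (edgeR adjusted p = 0.843), and is named here after its values were seen. Kmt5a, the monomethylating enzyme of H4 lysine 20, averaged 23.1 ± 7.46 CPM in libraries labelled knockdown, 18.8 ± 6.21 in ELS GFP, 20.8 ± 1.79 in libraries labelled overexpression and 16.1 ± 5.19 in Standard GFP. In all 8 libraries labelled overexpression its level was above the Standard GFP median, with a fold change of 0.34 (SE 0.24). Kmt5b, which adds further methyl groups to it, averaged 15.3 ± 4.30 CPM in libraries labelled knockdown, 16.4 ± 6.52 in ELS GFP, 14.8 ± 4.45 in libraries labelled overexpression and 23.6 ± 12.8 in Standard GFP, with a fold change of -0.63 (SE 0.32) for overexpression, and -0.37 without Standard GFP library 5.

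Of the other SET and SMYD proteins, 6 of 6 were tested, with medians of -0.01 for ELS, -0.02 for overexpression and -0.13 for knockdown. Setd6, which methylates the RelA subunit of NF-kappaB, was at 0.223 to 13.1 CPM (median 2.64) in libraries labelled knockdown, 0 to 9.82 CPM (median 2.24) in ELS GFP, 1.53 to 6.02 CPM (median 3.06) in libraries labelled overexpression and 1.14 to 47.6 CPM (median 4.73) in Standard GFP. Standard GFP library 5 held 62.6% of its group's sum. The fold change for ELS was -1.58 (SE 0.71) (edgeR adjusted p = 0.358), and -0.57 without that library. Setd3, an actin histidine methyltransferase, averaged 73.5 ± 5.23 CPM in libraries labelled knockdown, 93.6 ± 61.8 in ELS GFP, 74.3 ± 10.45 in libraries labelled overexpression and 70.7 ± 12.6 in Standard GFP, with a fold change of 0.39 (SE 0.21) for ELS and 0.02 without ELS GFP library 2. Setd5, a chromatin regulator linked to intellectual disability in humans, averaged 96.4 ± 21.5 CPM in libraries labelled knockdown, 91.2 ± 14.8 in ELS GFP, 92.2 ± 12.2 in libraries labelled overexpression and 81.98 ± 20.2 in Standard GFP, with a fold change of 0.16 (SE 0.17) for overexpression, and 0.08 without Standard GFP library 5. RefSeq annotation places Cnot1 over Setd6 and Ccnk over Setd3, and the labels do not state whether reads were assigned by strand, so their counts are uncertain to that extent. The same holds for Kdm1a (Luzp1), Kdm1b (Dek), Kdm5a (Ccdc77), Kdm5b (Mgat4e), Kmt2e (Srpk2), Nsd2 (Nelfa), Setdb1 (Cers2), Smyd4 (Rpa1) and Suv39h2 (Dclre1c), and for several members that overlap predicted or noncoding genes.

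Of the 12 other PRDM proteins, zinc finger factors in which methyltransferase activity has been shown for only some, 9 were tested. Their median fold changes were 0.02 for ELS, 0.24 for overexpression and 0.01 for knockdown. Prdm15 was at 5.07 to 23.4 CPM (median 13.6) in libraries labelled knockdown, 8.02 to 139 CPM (median 14.1) in ELS GFP, 6.33 to 21.5 CPM (median 13.6) in libraries labelled overexpression and 1.76 to 21.4 CPM (median 10.6) in Standard GFP. ELS GFP library 2 was the high one, as for Kdm4c and Kdm5b. The fold change of 1.32 (SE 0.47) for ELS (edgeR adjusted p = 0.194) was 0.28 without it, and that of -1.06 (SE 0.45) for knockdown (adjusted p = 0.696) was -0.01. Prdm11 was at 11.8 to 25.7 CPM (median 13.6) in libraries labelled knockdown, 10.3 to 29.5 CPM (median 13.8) in ELS GFP, 14.1 to 43.7 CPM (median 20.7) in libraries labelled overexpression and 8.04 to 22.8 CPM (median 15.9) in Standard GFP. In 7 of 8 libraries labelled overexpression it was above the Standard GFP median, with a fold change of 0.64 (SE 0.27) (edgeR adjusted p = 0.339). Prdm6, a repressor of smooth muscle genes, was at 0.468 to 7.26 CPM (median 2.52) in libraries labelled knockdown, 2.601 to 17.9 CPM (median 5.95) in ELS GFP, 2.12 to 15.2 CPM (median 5.21) in libraries labelled overexpression and 1.76 to 13.3 CPM (median 3.04) in Standard GFP. Here 7 of 8 libraries labelled knockdown were below the ELS GFP median, with a fold change of -1.19 (SE 0.50) (edgeR adjusted p = 0.677). Its unadjusted p was under 0.05 in 40 of 41 alternative fits, 32 of which leave out only 1 library. The same count was 34 of 41 for Prdm15 in the knockdown comparison, whose fold change was near 0 without ELS GFP library 2. Prdm16, a regulator of brown fat and neural stem cells, averaged 47.5 ± 20.1 CPM in libraries labelled knockdown, 45.9 ± 9.33 in ELS GFP, 59.9 ± 42.4 in libraries labelled overexpression and 66.3 ± 33.8 in Standard GFP, with a fold change of -0.53 (SE 0.31) for ELS, and -0.35 without Standard GFP library 1. Prdm10 averaged 20.2 ± 7.57 CPM in libraries labelled knockdown, 18.8 ± 5.37 in ELS GFP, 23.9 ± 10.2 in libraries labelled overexpression and 20.01 ± 8.84 in Standard GFP, with a fold change of 0.22 (SE 0.27) for overexpression, and 0.02 without library 1 of that group.

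**Figure D3:**
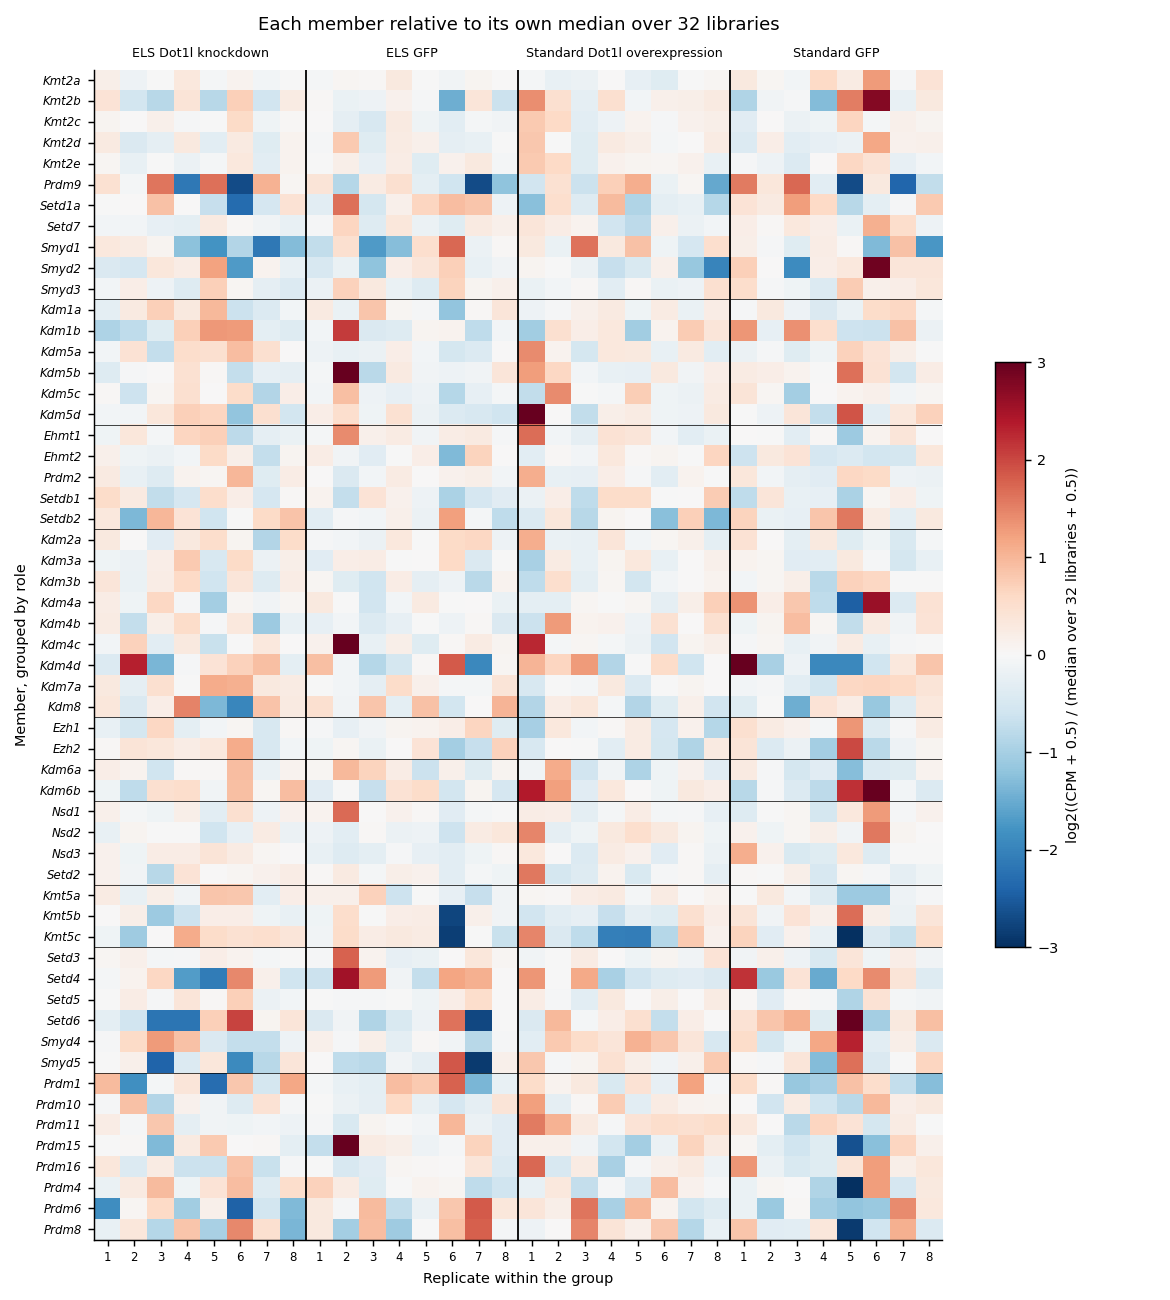
Level of 56 tested members in each of 32 libraries as the log2 ratio of CPM plus 0.5 to its own median, on a colour scale between -3 and 3, with libraries in columns by group. Columns for ELS GFP library 2, overexpression library 1 and Standard GFP library 6 carry several dark red cells above the rest of their groups.

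The 25 tested members that the naming rule does not name had log2 fold changes between -1.56 (Kdm4d) and 0.88 (Kdm8) in ELS relative to Standard GFP, with 17 of 25 negative. They ran between -1.46 (Kdm4d) and 0.76 (Smyd1) for overexpression, with 12 of 25 negative, and between -0.91 (Smyd1) and 0.98 (Prdm9) for knockdown, with 11 of 25 negative. For Kdm4d, Standard GFP library 1 at 40.04 CPM held 84.8% of its group's sum, where the group median was 0.983 CPM. Its log2 ratios of group medians had the opposite sign, at 0.48 for ELS and 0.92 for overexpression. The other members not tested were Prdm12 with 80 counts over all libraries, Prdm13 with 58, Prdm14 with 18, Kdm4dl with 10, and Kdm6bos, which is listed at 0. Partner subunits and enzymes outside the symbol rule were looked at as lists. None passed adjustment in any comparison. At an unadjusted p under 0.05 the PRC2 list had 3 of 9 genes for ELS, 2 for overexpression and 1 for knockdown, beside 11.7%, 10.9% and 6.18% of all genes, and each other list had at most 2 in any comparison. Of the COMPASS subunits 10 of 12 were tested, with median fold changes of -0.02 for ELS, 0.11 for overexpression and -0.08 for knockdown. Of the PRC2 subunits 9 of 10 were tested, with medians of -0.36, -0.46 and 0.05 in the same order, and 7 of 9 were negative for ELS. The PRC2 list summed to 22210 to 84530 CPM (median 52770) in Standard GFP, against 204 to 440 CPM (median 249) for the COMPASS list. Whether counting plays a part in this level was not tested, and no fits with libraries left out were examined for the genes of these lists. Partners of H3 lysine 9 methylation (7 of 8 tested) had medians of -0.06, -0.07 and 0.17, and subunits of the LSD1 complex (6 of 6 tested) had 0.05, 0.09 and 0.28. Further lysine methylation enzymes, such as Ash1l and Phf8 (9 of 11 tested), had medians of -0.18, -0.21 and 0.14.

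H3K79me2 lay over 45 of the 65 members in the ELS list and over 48 in the Standard list. Among the 57 members tested for RNA these were 43 and 46, or 75.4% and 80.7%, beside 54.3% and 58.6% of all tested genes. Both lists hold 1 set of peaks per rearing group without replicates, so every difference between them is a description with no test, and the fold enrichment of each peak is the authors' own. There were 3 members with a peak in the Standard list alone, among them Kdm4d with 304 bp and Prdm16 with 540 bp. Another 17 members had none in either list, among them 6 of the 12 other PRDM genes, Kdm5d, Kdm8, Kmt5c, Smyd1, Smyd5, Setd4, Setd6, Prdm9 and Suv39h1. The members' distinct peaks numbered 701 in the ELS list and 727 in the Standard list and covered 752314 bp and 970442 bp, with a mean length of 1073 bp against 1335 bp and a median of 524 bp against 542 bp. Over all genes 106374 ELS peaks averaged 871 bp and 117819 Standard peaks 1070 bp, so shorter ELS peaks were a feature of the whole lists. The authors' fold enrichment had a median of 1.97 in ELS and 2.01 in Standard for members' peaks, and 1.92 and 1.96 for all peaks. A base pair or more was shared with the other list by 93.2% of the members' ELS peaks and 63.7% of their Standard peaks, beside 90.8% and 62.6% of all peaks.

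The covered length was shorter in the ELS list for 44 of the 45 members with peaks in both lists, beside 91.5% of all 10902 such genes. The exception, among 8.48% of all genes with a longer covered length in ELS, was Setdb2, with 1 peak of 256 bp in the ELS list and another, outside the RefSeq span of the gene, of 205 bp in the Standard list. Over the 45 members the median covered length was 9457 bp in ELS and 14554 bp in Standard, and the median log2 ratio of ELS to Standard was -0.31, against -0.45 over all genes. Kmt2c had the longest coverage, 68723 bp in ELS and 80021 bp in Standard. Prdm2 followed with 51824 bp in ELS and 63823 bp in Standard. Setd2 had 51090 bp in ELS and 63547 bp in Standard, which is 59.3% and 73.8% of its span. Nsd1 had 45208 bp and 61966 bp in the same order, Nsd3 36516 bp and 42549 bp, and Ehmt1 34053 bp and 48237 bp. In base pairs, the difference of ELS from Standard was largest in Nsd1 (-16758), Ehmt1 (-14184), Setd2 (-12457), Prdm2 (-11999) and Kmt2c (-11298). Relative to its Standard length it was largest in Kdm6a, with 258 bp in 1 ELS peak and 2374 bp in 6 Standard peaks. By role, the 4 writers of H3 lysine 36 were covered over 157596 bp in ELS and 197888 bp in Standard. The 12 genes assigned as writers of H3 lysine 4 were covered over 169621 bp and 216582 bp, while the 12 other PRDM genes had 28271 bp and 42644 bp in the same order.

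**Figure D4:**
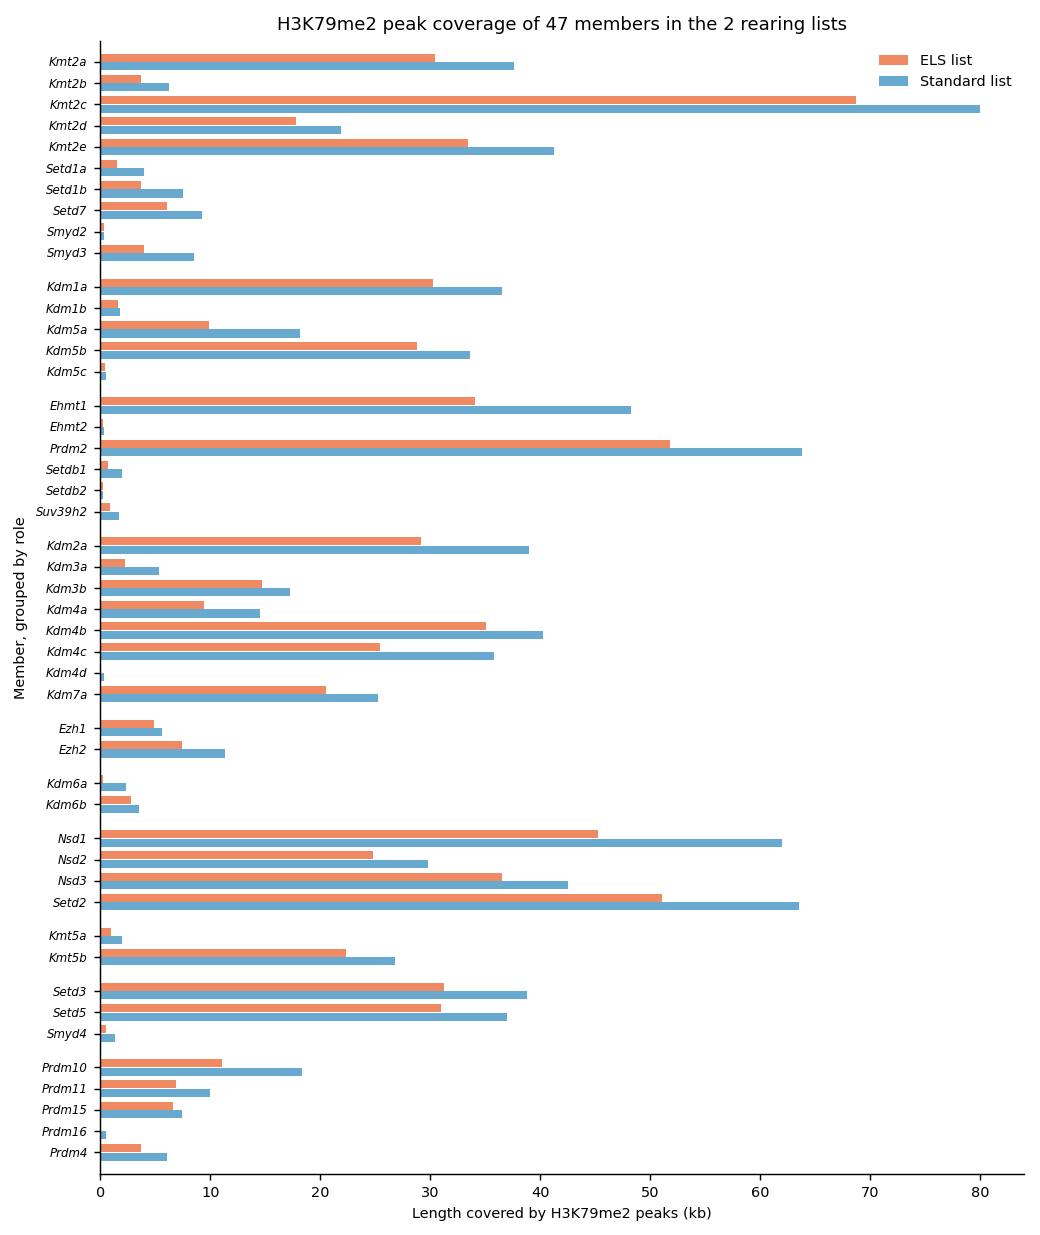
Length covered by H3K79me2 peaks, in kb, for 47 of the 48 members with a peak, ELS above Standard for each gene, 1 peak list per group and no error. The ELS bar is the shorter one in every gene drawn but Setdb2, and Kmt2c, Prdm2, Setd2 and Nsd1 have the longest bars in both lists.

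Enrichment was highest in Kdm1a for the Standard list, at 3.83-fold in a peak at chr4:136580434-136591799, which the ELS list holds at 3.24-fold over chr4:136580474-136588332. In the ELS list it was highest in Kdm4b, at 3.29-fold in a peak at chr17:56327261-56333652. The longest single peak lay over Kmt5b at chr19:3769306-3787360 in the Standard list, 18054 bp, where the ELS list has a peak of 10620 bp at chr19:3776719-3787339. Peaks near a start were first counted by the distance in the authors' deposited table, for members only. Within 1 kb of an annotated start, 32 members had a peak in the ELS list and 34 in the Standard list. Counting instead any peak that overlaps 1 kb on either side of a start, a measure chosen after seeing the data, these were 36 (55.4% of 65) and 39 (60.0%), beside 39.2% and 45.4% of all genes tested for RNA. Peaks within 1 kb of a start by the authors' distance had their highest enrichment in Kdm5a, 2.90-fold in ELS and 3.27-fold in Standard. Peaks that count only by overlap are left out of this ranking, which continues below. In the ELS list Setd5 (2.71-fold), Kdm4c (2.595-fold), Ehmt1 (2.53-fold) and Kmt2a (2.53-fold) came next. In the Standard list these were Kdm4c (3.15-fold), Kdm5b (3.03-fold), Kmt2a (2.79-fold), Setd1a (2.76-fold) and Kmt2d (2.76-fold).

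Along the gene, most of the covered length lay behind the 5′ end and towards it. No member's outermost RefSeq 5′ end was covered by a peak in either list, beside 6.27% of 8188 genes in ELS and 7.70% of 8980 genes in Standard. Each list had 45 members with a peak inside their span, but not all the same ones. Setdb2 and Smyd4 had one in the ELS list only, and Prdm16 was among those with one in the Standard list only. The first edge lay within 1 kb of the 5′ end in 20 members in the ELS list and 25 in the Standard list, beside 52.9% and 59.6% of all genes. The median distance to that edge was 1295 bp in ELS and 711 bp in Standard for members, and 876 bp and 641 bp for all genes. In 43 of the 45 members of each list, over 50% of the covered length lay in the 5′ 50% of the span, beside 87.2% of all genes in ELS and 86.3% in Standard. Kmt2a had 97.5% of its covered length there in ELS and 89.5% in Standard, and Kmt5b 94.1% and 84.7%. Kdm1a had 76.5% in ELS and 67.5% in Standard, and Setd2, whose peaks run on through the gene, 59.9% and 54.5%. The exceptions, in both lists, were Prdm2, with 38.1% in ELS and 39.2% in Standard, and Kdm6b, with 0% in each.

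**Figure D5:**
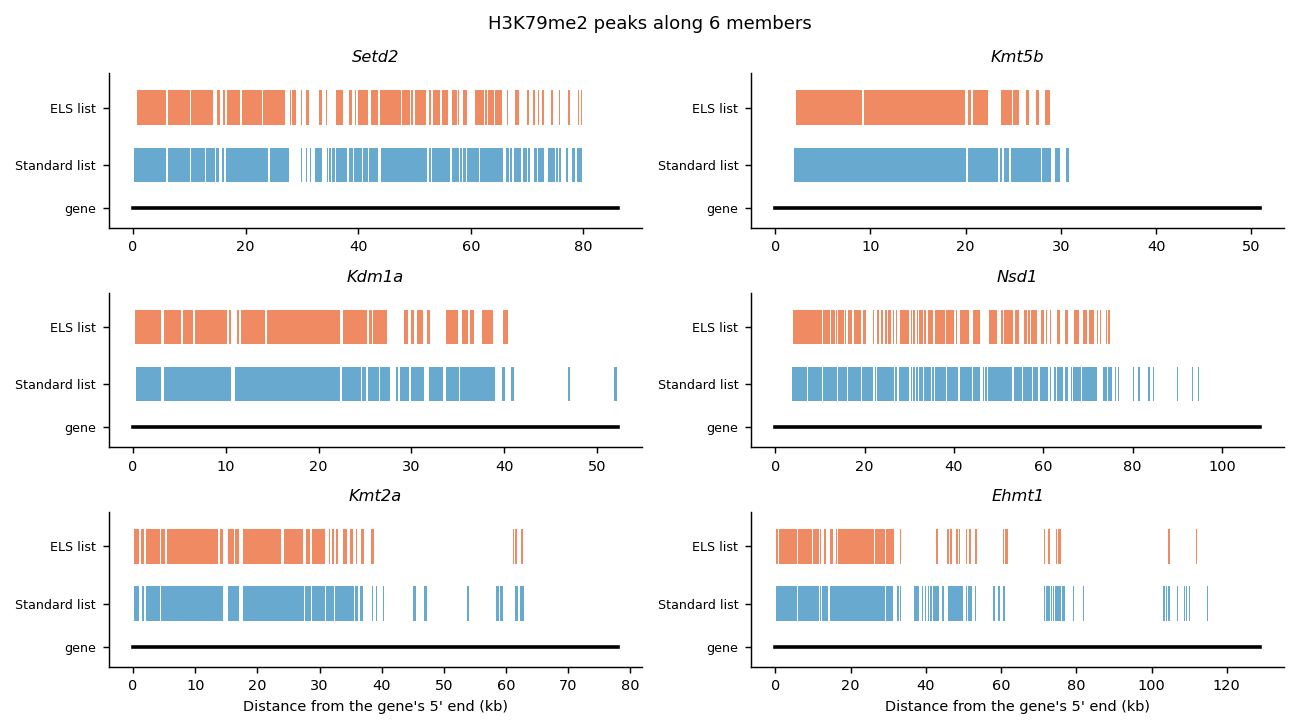
Peaks of 6 members (Setd2, Kdm1a, Kmt2a, Kmt5b, Nsd1 and Ehmt1) by distance from the outermost 5′ end in kb, with the ELS list above the Standard list. Peaks lie mostly in the part of each gene near the 5′ end, and less of the gene is covered in the ELS list, as in Kmt5b, where the longest peak is 10620 bp in ELS and 18054 bp in Standard.

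Members with several of the smallest RNA p-values were unlike in their peaks. Kmt2a was covered over 30392 bp in ELS and 37579 bp in Standard, and Kdm4a over 9457 bp and 14554 bp. Smyd2 had 1 peak in each list, of 314 bp in ELS and 358 bp in Standard. Kdm6b was covered over 2816 bp in ELS and 3500 bp in Standard, and Prdm6 had no peak in either list. The mice used for RNA and for chromatin cannot be matched from the labels, so the readouts were set side by side by gene only.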

How the data were processed

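RNA from whole nucleus accumbens was deposited as a table of raw counts per Ensembl gene, and the authors' processing notes name FastQC, HISAT2, featureCounts and DESeq2 with build mm10, without versions, while the table's own name speaks of HTSeq. Peaks were deposited as 1 annotated list per rearing group. Per the file headers they give a fold enrichment (ratio) and a q-value for each peak, and the authors' distance to a transcript start in base pairs. Neither the labels nor the headers name a peak caller, say what the fold is relative to, or tell how samples were combined and how deeply they were sequenced. Highest q-values were 0.0489 (ELS) and 0.0497 (Standard).

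Members were found by symbol in a table that pairs Ensembl gene IDs with symbols (52403 IDs of the count table matched), and peaks were joined by Ensembl ID, since the lists use older names for 4 members (Setd8, Suv420h1, Whsc1, Whsc1l1). The members, roles and gene lists were chosen with earlier results of these data known. Roles were assigned from textbook knowledge, and enzyme activity was not checked for each member. Counts were filtered by filterByExpr, scaled by TMM and fitted with edgeR 4.0.16 in R 4.3.3 (quasi-likelihood, robust) in 1 model of 4 group means over 32 libraries with 28 residual degrees of freedom. The common biological coefficient of variation was 0.566. CPM was computed from the deposited counts with TMM-scaled totals. Genes named were those with an unadjusted p under 0.05 in any test, the 2 with the highest mean CPM in each role, 8 fixed genes, and for peaks the 5 leading genes by coverage, change and promoter enrichment. Exceptions are stated, and 1 member that the rule names is counted but not reported here. DESeq2 1.42.0 and limma 3.58.1 (voom) were alternatives, together with other scalings, filters and left-out libraries. Leaving out the 5 libraries that hold over 50% of their group's summed CPM for any tested member, joining by exact name and an edge-based promoter distance were chosen after seeing the data. The edgeR script was tested on simulated counts. Library numbers are in accession order and name a library only. Precision is limited by 8 libraries per group and by 4 libraries under 1000000 counts.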

Additional observations from a re-analysis of the deposited data

Results flagged for a closer look

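For each of the 32 named members that were tested, the highest and lowest library of each group of 8 was compared with the rest, and a library was picked out where its gap to the nearest other library exceeded 0.526 of the group's whole range (Dixon's 95% critical value). This happened in 51 of 128 member-and-group pairs. For normally distributed values, chance flags about 1 in 20 groups. CPM values were used without a log transform and almost all flags were at the high end, so that rate need not hold here. Many of the members examined were also named for their p-value or mean CPM in these same libraries. A single high library can raise a mean, so the 51 cannot be set against that rate. Members are not independent either, since a few libraries account for most of the 51. Values below are that gap divided by the range, and each library was the highest of its group unless stated.

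Library 1 of those labelled overexpression stood apart for 12 members: Kdm5d (0.956), Kdm4c (0.887), Setd2 (0.833), Ehmt1 (0.766), Prdm16 (0.749), Prdm2 (0.748), Kdm5a (0.718), Kmt2b (0.684), Kdm6b (0.647), Kdm2a (0.642), Kmt2d (0.565) and Kdm5b (0.553). ELS GFP library 2 stood apart for 8: Kdm4c (0.966), Kdm5b (0.905), Prdm15 (0.895), Nsd1 (0.877), Setd3 (0.84), Ehmt1 (0.839), Kdm5c (0.685) and Kmt2d (0.565). Standard GFP library 6 did so for 8 as well: Smyd2 (0.812), Kmt2d (0.729), Kdm6b (0.687), Nsd1 (0.681), Kmt2a (0.613), Kmt2b (0.608), Kdm4a (0.6) and Prdm10 (0.537). Standard GFP library 5, which is 1 of the 4 libraries under 1000000 counts, did so for 6: Setd6 (0.886), Kmt5b (0.808), Ezh2 (0.768), Kdm5b (0.732), Kdm5d (0.677) and Ezh1 (0.646).

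The remaining pairs were spread over 9 libraries. Library 6 of those labelled knockdown stood apart for Prdm2 (0.642), Setd6 (0.63), Kdm6a (0.608) and Ezh2 (0.592), and library 3 of that group for Prdm11 (0.64) and Ezh1 (0.582). ELS GFP library 6 was the highest for Prdm11 (0.743) and Setd6 (0.713) and the lowest for Kmt5b (0.586). ELS GFP library 7 stood apart for Setd5 (0.553), Prdm6 (0.546) and Ezh1 (0.526), and ELS GFP library 4 for Kmt2a (0.551). Among libraries labelled overexpression, library 2 stood apart for Kdm6a (0.649) and library 8 for Kdm4a (0.627). Standard GFP library 7 was the highest for Prdm6 (0.641), and Standard GFP library 3 the lowest for Kdm5c (0.557). TMM scaling factors were 0.530 for library 1 of those labelled overexpression and 0.565 for Standard GFP library 6, the lowest factors among the 32 libraries. A lower factor raises every CPM value of its library. Why these libraries differ was not tested, nor was the part of scaling in these gaps.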

How the results depend on the processing

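No member passed adjustment under any alternative. Over all genes, DESeq2 called 85 for ELS, 41 for overexpression and 2 for knockdown where edgeR called 0 (unadjusted p under 0.05: 1644, 1524 and 866). Without the libraries under 1000000 counts, edgeR called 7 for ELS and 18 for overexpression. The 4-group test called 178 genes, 901 with no filter, and 0 with voom, with the replicate block or without the 5 dominating libraries (chosen after seeing the data). Members at an unadjusted p under 0.05 in ELS (9) were 4 with voom, 3 with the replicate block, 5 with only the compared groups and 3 without the dominating libraries. In overexpression (5) they were 3 without these, in knockdown (4) they were 1 with DESeq2 or voom, and in the 4-group test (8) they were 5 with no filter, 4 with voom, 3 with the block and 1 without the dominating libraries. The block is the number in the titles, which nothing in the labels ties to an animal, litter or day.

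With 1 library left out at a time, members at an unadjusted p under 0.05 numbered 6 to 11 for ELS, 3 (without Standard GFP 3) to 8 for overexpression, 1 (without ELS GFP 2) to 6 for knockdown, and 4 (without Standard GFP 6) to 11 (without knockdown 6) in the 4-group test, which called 20 genes without Standard GFP 6, 65 without ELS GFP 2 and up to 278 without Standard GFP 7. Fold changes that reversed ranged between -1.35 and 0.053 for Kdm4c, -0.16 and 0.037 for Kmt2d, -0.38 and 0.073 for Nsd1 (each reversed without ELS GFP 2), -0.051 and 0.25 for Kdm1a (without ELS GFP 6 or knockdown 5) and -0.028 and 0.20 for Prdm2 (without knockdown 6) in the knockdown comparison. In the overexpression comparison they ranged between -0.44 and 1.35 for Kdm5d, -0.12 and 0.34 for Setd2 (both reversed without overexpression 1) and -0.52 and 0.051 for Ezh2 (without Standard GFP 5).

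Of 1558 values of 38 named fold changes under 41 alternatives, 1532 kept their sign and 26 reversed. No adjusted p was under 0.05 in any of these fits, so the tally rests on sign alone. A kept sign can still go with a value near 0. For ELS, Prdm15 was 1.32 and as low as 0.0009, and Kmt2b was -1.04 and as near 0 as -0.031. The reversed values follow. With DESeq2 Kdm5d for overexpression was -0.49 and Kdm4c for knockdown 0.029. With voom Kdm5d was -0.12, Setd2 (overexpression) -0.0214, Kdm1a (knockdown) -0.20 and Prdm15 (knockdown) 0.087. Without libraries under 1000000 counts Ezh2 (overexpression) was 0.10. Without the dominating libraries the values were, for ELS, Kdm6b 0.23, Prdm16 0.0197 and Smyd2 0.01, for overexpression, Ehmt1 -0.033, Ezh2 0.10, Kdm5d -0.25 and Setd2 -0.0835, and for knockdown, Kdm4c 0.054, Kmt2d 0.038 and Nsd1 0.074. The cause was not tested.

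With peaks at a q-value of 0.01 or below, 2 members were covered over a longer stretch in ELS, against 1. With a 50% reciprocal overlap, 38.4% of ELS and 36.7% of Standard member peaks overlapped the other list, against 93.2% and 63.7% with 1 base. The 4-group test has no value with only the compared groups. Depth limits members at a few CPM, among them Setd6, Prdm6, Kdm4d, Kdm8 and Smyd1.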

Other observations

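Some members with few or no counts in the RNA table carried H3K79me2 peaks. Setd1b is listed at 0 in all 32 RNA libraries, and whether it lacked RNA or was not counted was not tested. It had 10 peaks over 3706 bp in the ELS list and 12 peaks over 7514 bp in the Standard list. Suv39h2, with 194 counts over all libraries, had 3 peaks over 865 bp in the ELS list and 4 over 1744 bp in the Standard list, and RefSeq places Dclre1c over it. Suv39h1 and Kdm6bos, both listed at 0, had no peak in either list.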
